A study of Mus musculus with 6 samples.

Results

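The receptors and ligands of fibroblast growth factor (FGF), insulin-like growth factor (IGF) and epidermal growth factor (EGF) signalling were examined in mouse skin with and without a targeted Hoxc13 allele. The set held 10 genes, listed by symbol and chosen by function with earlier mutant against wild type values of these arrays in view: the receptors Fgfr1, Fgfr2, Fgfr3, Igf1r and Egfr and the ligands Igf1, Fgf5, Fgf7, Fgf10 and Fgf18. All 10 had a probe set, out of 16331 probe sets tested. Because the comparison of the groups was known when the genes were listed, their differences are given below as a description, with a standard error and without a p-value.

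The mutant samples were dissected skin from 3 mice labelled Hoxc13 knockout with the allele Hoxc13tm1Mrc, and they were set against skin from 3 WT mice. All 6 samples share a C57BL/6 background, the label male and 5 dpn in their titles. The zygosity of the mutants, the extent of the disruption and the litters were not given in the sources used here. Total RNA of the whole tissue was hybridised to Affymetrix arrays, and each value is a log2 intensity after robust multi-array averaging (RMA), so a difference of 1 is a 2-fold change. In whole skin, a change in the number of cells of a type cannot be told apart from a change in RNA per cell.

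FGF and EGF receptors and the IGF1 receptor are tyrosine kinases at the cell surface. Binding of a ligand activates the kinases, which then switch on the Ras and MAP kinase cascade and the PI3 kinase cascade, while Sprouty proteins and dual-specificity phosphatases act as feedback brakes. In skin the dermis and the dermal papilla make FGF7, FGF10 and IGF1, and the overlying epithelium carries the receptor FGFR2 in its IIIb splice form, through which FGF7 and FGF10 signal. FGF5 is known for ending hair growth, and mice without it have overlong hair. EGFR acts in the epidermis and outer root sheath, and FGF18 is known as a signal of the resting follicle.

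Mutant replicate 3 was unlike mutant replicates 1 and 2, so several results are also given without it. It lay at -26.6 on the second principal component, against 13.1 and 11.1 for mutant replicates 1 and 2. Hoxc13 itself read 8.95, 8.75 and 9.74 in mutant replicates 1, 2 and 3, against 9.63, 9.81 and 9.83 in wild type skin. The limma difference was -0.61 (SE 0.23, adjusted p = 0.293), and where its probes lie relative to the disruption was not given, so the level does not check the labels. Although the labels say male, Xist read 11.2 to 11.7 and the 6 Y-linked probe sets at most 4.89 across the arrays. Markers of basal keratinocytes and of dermal fibroblasts read at least 8.33 and 8.88 on every array. All 9 measured hair shaft keratins fell in mutant skin, with a median difference of -6.43 and list means of 5.44 to 5.96 in mutant skin and 11.4 to 11.8 in wild type skin.

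Among the 5 listed receptors, Fgfr1, Igf1r and Fgfr2 read higher in mutant skin, while Fgfr3 and Egfr overlapped wild type. Fgfr3 and Egfr differed by 0.14 and 0.15, less in size than the ligand Fgf5 (-0.21). The differences of the 5 listed ligands were small, and for 3 of the 5 the sign changed when an array was left out. All 5 receptors had a positive difference, with a median of 0.39 and a range of 0.14 to 0.53. With all arrays the 5 ligands had negative differences, with a median of -0.104 and a range of -0.21 to -0.0443. Without mutant replicate 3 the median was 0.40 for the receptors and -0.0175 for the ligands, of which 3 of 5 were then below 0. Over all 16331 probe sets the median difference was 0.0247, and 57.6% of differences were above 0. Of the receptors, 3 were past the limma threshold of an adjusted p of 0.05, and all 3 were higher, where 0.478% of all probe sets were called higher and 2.08% in either direction. None of the 5 ligands was past it, and 0 of the 5 had an unadjusted limma p under 0.05. Nothing is read from these counts, since the listing used the same contrast, and the difference between receptors and ligands was not tested. It covers the 10 listed genes only. Outside the set, the ligands Igf2 and Fgf22 were at 0.65 (SE 0.27) and -0.54 (SE 0.19). The receptors Fgfr4, Insr and Erbb4 were at -0.0533 (SE 0.09), -0.0880 (SE 0.12) and 0.0693 (SE 0.08). Their levels lay below the lower quartile of the arrays (5.49), so they are not shown to be above background. The receptors Erbb2, Erbb3, Fgfrl1 and Igf2r were at 0.20, 0.20, 0.18 and 0.0297 (SE 0.12, 0.25, 0.11 and 0.08). None of these was called, and they are named after their values were seen.

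**Figure D1:**
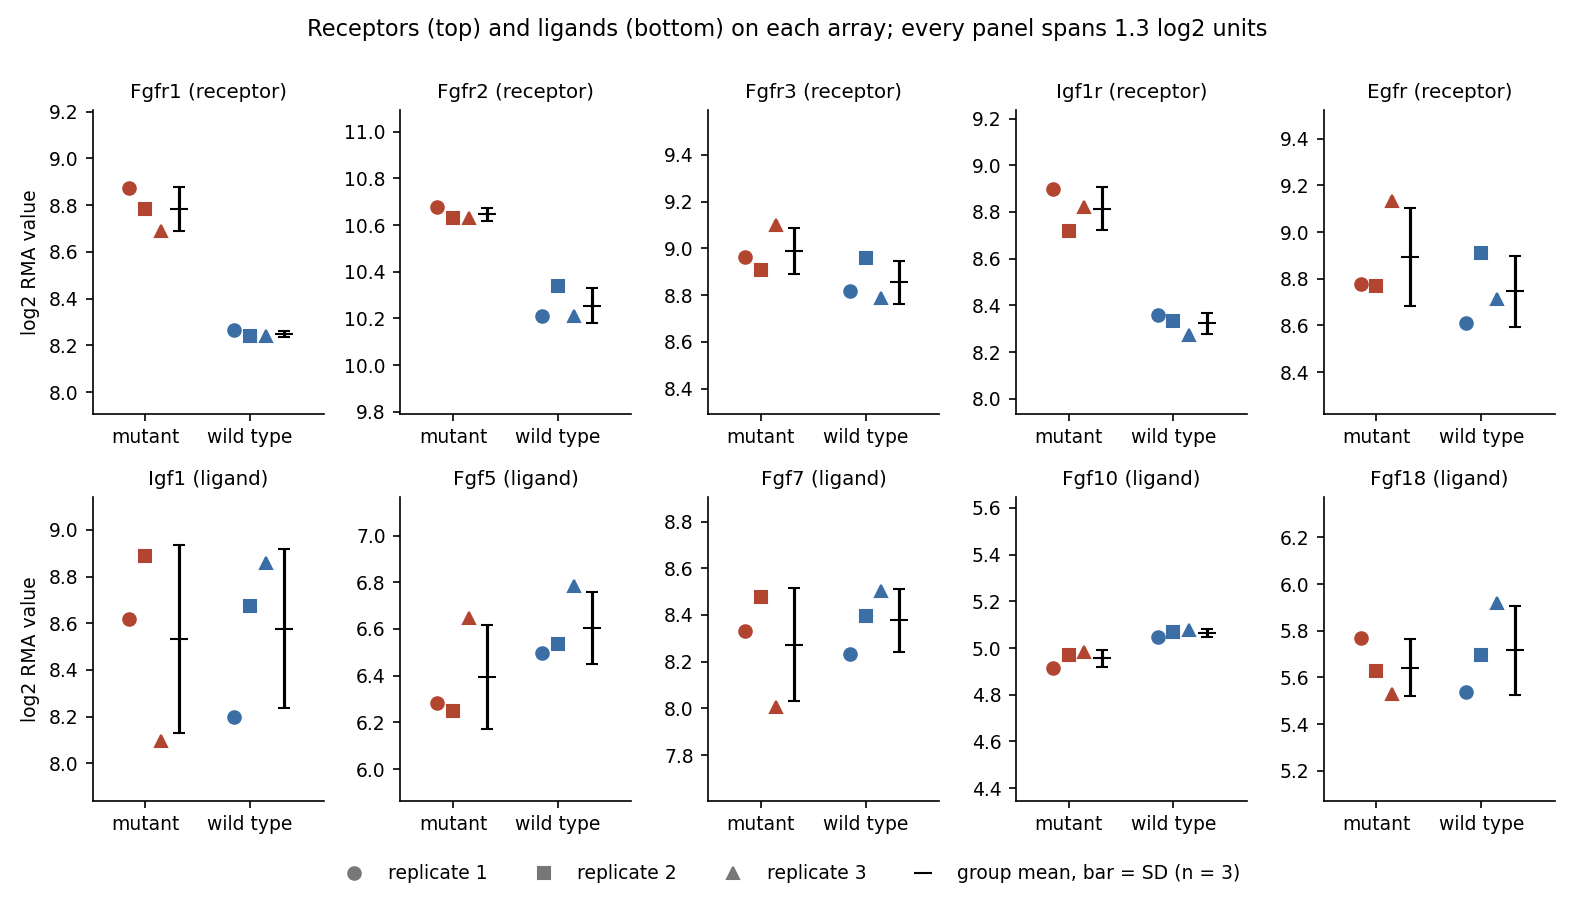
The log2 RMA value of each of the 10 genes on each array is plotted for mutant skin (red, left) and wild type skin (blue, right), with symbols for replicates 1 to 3 and black bars for the group mean and SD (n = 3 each). In Fgfr1, Fgfr2 and Igf1r all mutant points lie above all wild type points, in Fgf10 all lie below by a small margin, and in the other 6 genes the groups overlap.

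Fgfr1, a receptor with dermal and epithelial roles, had the largest difference of the set. Its values were 8.88, 8.79 and 8.69 in mutant skin, against 8.27, 8.24 and 8.24 in wild type skin. The lowest mutant array was above the highest wild type array, and the wild type arrays were almost level. The means were 8.78 ± 0.09 in mutant skin and 8.25 ± 0.01 in wild type skin (SD, n = 3 each), a difference of 0.53 (SE 0.07) or 1.45-fold.

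Igf1r, the receptor for IGF1, followed with nearly the same difference. It read 8.90, 8.72 and 8.82 in mutant skin, against 8.36, 8.33 and 8.27 in wild type skin. The groups did not overlap, and the gap between them was wider than the spread within either. The means of 8.81 ± 0.09 in mutant skin and 8.32 ± 0.05 in wild type skin (SD, n = 3 each) differed by 0.49 (SE 0.08), or 1.40-fold.

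Fgfr2, the epithelial receptor for FGF7 and FGF10, read 10.68, 10.63 and 10.63 in mutant skin, against 10.21, 10.34 and 10.21 in wild type skin. The mutant arrays were tightly grouped above all wild type arrays. The means were 10.65 ± 0.03 in mutant skin and 10.25 ± 0.08 in wild type skin (SD, n = 3 each), a difference of 0.39 (SE 0.07) or 1.31-fold. A probe set per gene cannot separate its IIIb and IIIc splice forms.

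These 3 genes were the ones whose mutant values all lay above the wild type values, as did those of 12.5% of all probe sets. Without mutant replicate 3 the differences were 0.58 for Fgfr1, 0.49 for Igf1r and 0.40 for Fgfr2, and all 3 were again called, where 14.2% of probe sets were called in that fit. The calls changed with the array left out, and nothing is read from them, since the listing used the same contrast. Without mutant replicate 2 only Igf1r was called (0.54), and without mutant replicate 1 or any single wild type array none of the 3 was. Over the 6 fits the differences ranged from 0.49 to 0.58 for Fgfr1, 0.45 to 0.54 for Igf1r and 0.37 to 0.43 for Fgfr2, so the sizes moved little.

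The upstream DNA of Fgfr2 and Igf1r is shown because these receptors differed by similar amounts although the windows before their annotated starts are unlike in base composition. Whether these starts are the ones used in skin was not tested. Both sequences are the 250 bases before the RefSeq transcript start in GRCm38.p6, written 5′ to 3′ on the gene's strand, with capitals marking each CpG, the dinucleotide that is dense in CpG island promoters. Fgfr2 lies on the minus strand at chr7:130266809-130267058, and Igf1r on the plus strand at chr7:67952007-67952256.
Fgfr2: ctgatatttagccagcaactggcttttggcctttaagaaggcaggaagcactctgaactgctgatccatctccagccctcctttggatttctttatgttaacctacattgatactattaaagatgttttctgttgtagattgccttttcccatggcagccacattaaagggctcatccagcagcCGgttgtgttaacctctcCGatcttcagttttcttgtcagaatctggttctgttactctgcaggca
Igf1r: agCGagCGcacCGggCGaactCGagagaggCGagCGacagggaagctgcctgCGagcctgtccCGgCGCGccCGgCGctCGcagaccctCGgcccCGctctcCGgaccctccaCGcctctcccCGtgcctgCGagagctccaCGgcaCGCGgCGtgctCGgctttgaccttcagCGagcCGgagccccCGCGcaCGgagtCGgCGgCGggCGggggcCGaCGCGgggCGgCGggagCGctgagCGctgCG

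The Fgfr2 window held 2 CpGs at 44% G and C, and the Igf1r window held 42 CpGs at 77.6%. The median over 32851 such windows was 6 CpGs, and 99.1% of windows had fewer CpGs than that of Igf1r against 18.8% for Fgfr2. HOX proteins of the posterior paralog groups, to which HOXC13 belongs, prefer the cores ATAAA and GTAAA, which were searched on both strands. ATAAA also lies within the TATA box sequence TATAAA. The Fgfr2 window held 1 match, an ATAAA on the opposite strand that begins 159 bases before the start, and the Igf1r window held none. At least 1 of the cores occurred in 51.2% of all windows, so a match is common and describes letters only. Of the 10 genes, 9 had a window, with 2 windows for Fgfr3. The windows of Fgf18, Fgf5, Fgfr3 and Egfr held 37, 24, 19 and 24, and 11 CpGs, and those of Fgf10, Fgf7 and Igf1 held 8, 6 and 5.

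The other receptors differed less. Fgfr3, another FGF receptor of skin epithelium, read 8.96, 8.91 and 9.10 in mutant skin, against 8.82, 8.96 and 8.79 in wild type skin. The groups overlapped at wild type replicate 2, and the difference was 0.14 (SE 0.08). Egfr read 8.78, 8.77 and 9.13 in mutant skin, against 8.61, 8.91 and 8.71 in wild type skin. Mutant replicates 1 and 2 lay inside the wild type range, and mutant replicate 3 was the highest of all arrays. The Egfr difference was 0.15 (SE 0.13), and 0.0270 without mutant replicate 3, while that of Fgfr3 was 0.0817 without it.

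Among the ligands, Fgf5 had the most negative difference. It read 6.28, 6.25 and 6.65 in mutant skin, against 6.50, 6.54 and 6.78 in wild type skin. Mutant replicates 1 and 2 lay below every wild type array, and mutant replicate 3 lay between wild type replicates 2 and 3. The means were 6.39 ± 0.22 in mutant skin and 6.61 ± 0.15 in wild type skin (SD, n = 3 each), a difference of -0.21 (SE 0.13), or -0.34 (SE 0.10) without mutant replicate 3, and Fgf5 was called in neither fit.

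Fgf10, a dermal signal to epithelial FGFR2, read 4.91, 4.97 and 4.98 in mutant skin, against 5.05, 5.07 and 5.08 in wild type skin. It was the only member whose mutant values all lay below the wild type values, as did those of 7.82% of all probe sets, and the difference was -0.109 (SE 0.06). These levels were just above the highest Y-linked reading of 4.89 and below the lower quartile of the arrays (5.49). No detection calls were used, so Fgf10 is not shown to be above background on any array.

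Fgf7, the keratinocyte growth factor, read 8.33, 8.48 and 8.01 in mutant skin, against 8.23, 8.39 and 8.50 in wild type skin. Mutant replicates 1 and 2 lay inside the wild type range, and mutant replicate 3 was the lowest of all arrays. The difference was -0.104 (SE 0.13), and 0.0280 without that array.

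Igf1, the ligand of the receptor that was higher, read 8.62, 8.89 and 8.10 in mutant skin, against 8.20, 8.67 and 8.86 in wild type skin. It had the widest spread of the set, with an SD of 0.40 in mutant skin and 0.34 in wild type skin (n = 3 each), and the groups overlapped almost fully. Its difference of -0.0443 (SE 0.23) turned to 0.17 (SE 0.18) without mutant replicate 3. It also turned to 0.0967 without wild type replicate 3 and to 0.0032 without wild type replicate 2, so no direction is given for Igf1.

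Fgf18 read 5.77, 5.63 and 5.53 in mutant skin, against 5.54, 5.69 and 5.92 in wild type skin. The groups overlapped, with a difference of -0.0743 (SE 0.11) that turned to 0.0262 without wild type replicate 3. Its level was close to the lower quartile, like that of Fgf10. The 5 ligands kept a common sign in 3 of the 6 fits that left out an array, those without mutant replicates 1 or 2 or wild type replicate 1, and without mutant replicate 3 only 3 of 5 were lower. All 5 receptors were higher in each of the 6 fits.

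**Figure D2:**
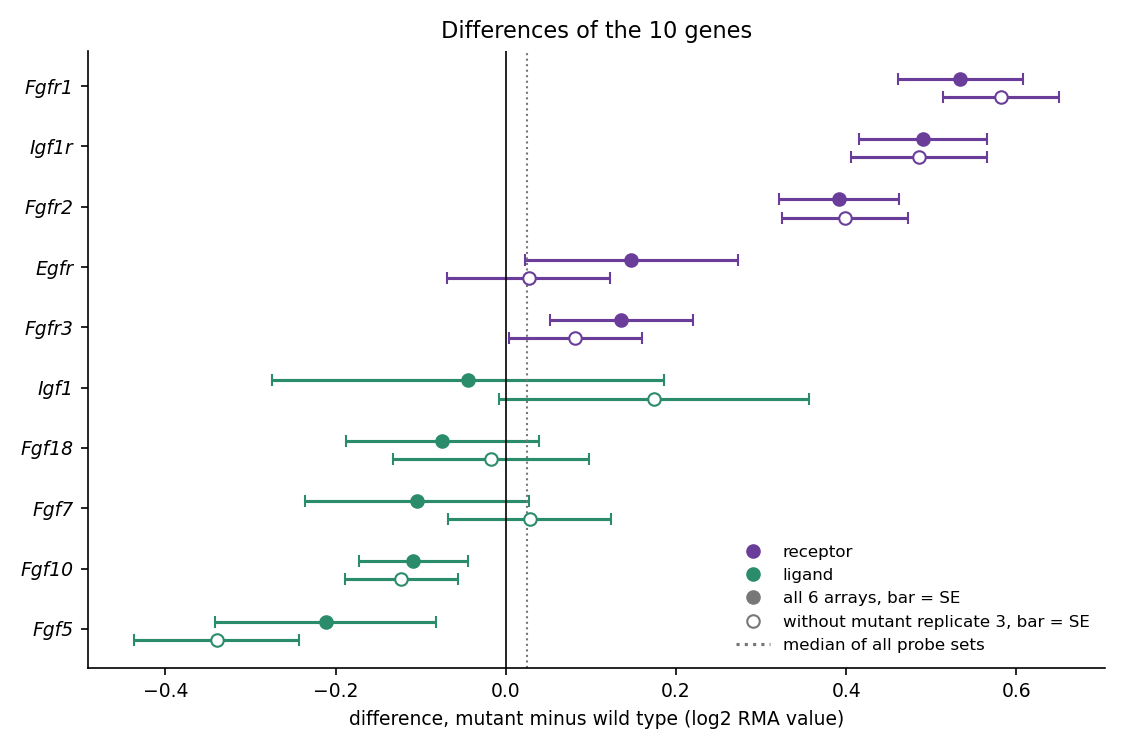
The difference between mutant and wild type skin (log2 RMA value, horizontal axis) is plotted for each gene with its SE, from all 6 arrays (filled) and without mutant replicate 3 (open), with receptors in purple, ligands in green and the median of all probe sets dotted. Fgfr1, Igf1r and Fgfr2 stay between 0.39 and 0.58 in both fits, Igf1 and Fgf7 cross 0, and Egfr drops to 0.0270.

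The median deviation of the 5 receptors from their wild type means was 0.42, 0.38 and 0.39 on mutant replicates 1, 2 and 3, against -0.0353, 0.0870 and -0.0450 on the wild type arrays. The level median rested on different genes: Fgfr1, Fgfr2 and Igf1r lay 0.38 to 0.63 above their wild type means on every mutant array, whereas Egfr lay at most 0.03 above on mutant replicates 1 and 2 and 0.39 on mutant replicate 3, and Fgfr3 lay 0.11, 0.0527 and 0.24 above on mutant replicates 1, 2 and 3. For the 5 ligands the median deviation was -0.0460, -0.0890 and -0.19 on the mutant arrays, against -0.14, 0.0030 and 0.18 on the wild type arrays, so mutant replicates 1 and 2 lay inside the wild type range and mutant replicate 3 just below it.

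Several members that set mutant replicate 3 apart moved on that array together with cell type markers. The 8 basal and outer root sheath keratinocyte markers had list means of 11.16, 11.18 and 11.54 in mutant skin and 11.03, 11.21 and 11.10 in wild type skin. Of the 8, 0 were called by limma and 2 had an unadjusted p under 0.05, and on mutant replicate 3 the level of 7 of 8 exceeded the average of mutant replicates 1 and 2. Egfr and Fgfr3 had their highest values on the same array. The 7 inner root sheath markers had means of 12.30, 12.40 and 12.82 in mutant skin and 12.85, 12.90 and 12.93 in wild type skin. Of these, 1 was called lower (Krt72, -2.20, SE 0.30, limma adjusted p = 0.0106). The median difference of the list was only -0.11, so the drop of its mean rests largely on Krt72. Fgf5 was likewise lowest on mutant replicates 1 and 2, as was the mean of the 5 melanocyte markers (10.92 and 10.73).

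Dermal lists ran the other way on that array. The 6 fat cell markers had means of 10.55, 10.96 and 10.38 in mutant skin and 10.56, 10.83 and 10.94 in wild type skin, with 0 called and 1 at an unadjusted limma p under 0.05. Igf1, which fat cells, fibroblasts and macrophages make, and Fgf7 were also lowest on mutant replicate 3. The 8 fibroblast markers ranged from 12.05 to 12.41 in mutant skin and from 12.07 to 12.18 in wild type skin, and the 8 leukocyte markers from 8.17 to 8.74 in mutant skin and from 8.17 to 8.21 in wild type skin. In each of these lists 0 were called, and 2 fibroblast and 0 leukocyte markers had an unadjusted limma p under 0.05. Without mutant replicate 3, 2 of 6 fat cell, 3 of 8 fibroblast, 4 of 8 leukocyte and 1 of 8 basal keratinocyte markers were called higher, and 3 of 7 inner root sheath markers lower. In that fit 14.2% of all probe sets were called in either direction, so the keratinocyte count is near the share of all probe sets. On mutant replicate 3 all measured fat cell, dermal papilla, muscle and leukocyte markers read below the average of mutant replicates 1 and 2. All 5 melanocyte markers read above that average, so neither direction was particular to 1 cell type. The part of these cells in the values of Egfr, Fgfr3, Fgf5, Igf1 and Fgf7 was not tested.

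Fgfr1, Fgfr2 and Igf1r were set beside the remaining lists, and the epithelial receptor Fgfr2 also beside the basal and outer root sheath keratinocyte list. The median difference of those 8 keratinocyte markers was 0.20, with 0 called. In the 2 with an unadjusted limma p under 0.05 all mutant arrays lay above all wild type arrays, as in 12.5% of all probe sets. The 7 dermal papilla markers had means of 8.19, 8.04 and 7.55 in mutant skin, against 7.41, 7.47 and 7.51 in wild type skin. Of the 7, 0 were called and 4 had an unadjusted limma p under 0.05, and on mutant replicate 3 the mean was close to the wild type range. In those 4 markers all mutant arrays, replicate 3 included, lay above all wild type arrays, and in the others the groups overlapped. Without that array all 7 were called higher (limma adjusted p of 0.000949 to 0.025), in the fit in which Fgfr1, Fgfr2 and Igf1r were also called and 14.2% of all probe sets were. On mutant replicate 3 Fgfr1 exceeded its wild type mean by 0.44, Fgfr2 by 0.38 and Igf1r by 0.50. The 8 skeletal muscle markers, with 1 called higher (Myh2, 1.23, SE 0.19, adjusted p = 0.0195), ranged from 10.61 to 11.65 in mutant skin and from 9.88 to 11.11 in wild type skin, so those groups overlapped. Endothelial markers (5) ranged from 7.27 to 7.57 in mutant skin and from 7.31 to 7.59 in wild type skin, and melanocyte markers (5) from 10.73 to 11.42 in mutant skin and from 11.36 to 11.59 in wild type skin. In each 0 were called, and 0 endothelial and 2 melanocyte markers had an unadjusted limma p under 0.05. Once mutant replicate 3 was left out, 4 of 8 muscle markers were called higher, 4 of 5 melanocyte markers lower and 0 of 5 endothelial markers. The part of these cells in the differences of Fgfr1, Fgfr2 and Igf1r was not tested.

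**Figure D3:**
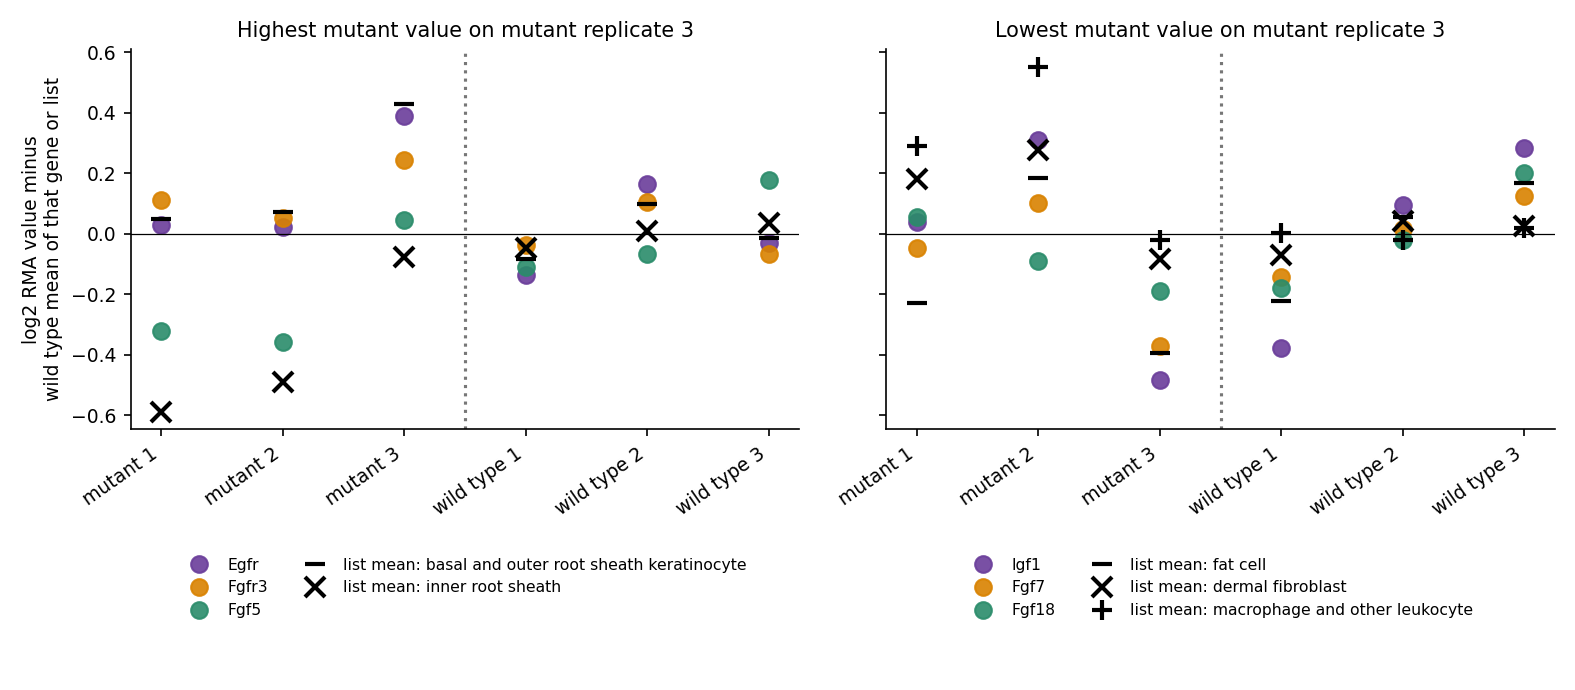
For each array, the deviation from the wild type mean (log2 RMA value, vertical axis) is plotted for members (coloured points) and marker list means (black symbols), with mutant arrays left of the dotted line. Egfr and Fgfr3 are highest on mutant replicate 3 together with the basal keratinocyte list, and Igf1 and Fgf7 are lowest there together with the fat cell list.

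The genes whose profiles were nearest to those of the extreme members were looked up by the Euclidean distance between log2 values centred on each gene's mean over the 6 arrays. Nearest to Fgfr1 were Inhba (distance 0.103), Synpo (0.106) and Slc4a4 (0.118). Inhba, which encodes an activin subunit, read 7.93, 7.88 and 7.66 in mutant skin, against 7.34, 7.31 and 7.25 in wild type skin. Nearest to Fgf5 were Cpxm2 (0.108), Efnb2 (0.125) and Cipc (0.132). Efnb2, which encodes the membrane ligand ephrin-B2, read 8.62, 8.68 and 9.05 in mutant skin, against 8.95, 8.89 and 9.09 in wild type skin.

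The other genes of these pathways were tested in the same fit. Of 138 further genes in 8 lists, 120 were measured, and the limma test called 5, or 4.17%, against 2.08% of all probe sets. Of these, 2 rose, where 0.478% of all probe sets were called higher, and 3 fell, where 1.60% were called lower. The number called was 20 without mutant replicate 3, 0 to 2 without any other single array and 19 with array weights, so it says little about the pathways as a whole. The median difference over the 120 genes was 0.0590.

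In the insulin and IGF axis, 1 of 17 measured genes rose and 1 fell, with a list median of 0.0297. An unadjusted p under 0.05 was found for 8 of the 17, or 47.1%, against 14.4% of all probe sets. Without mutant replicate 3 limma called 4 higher and 2 lower, or 35.3%, against 14.2% of all probe sets. Igfbp7, a secreted IGF-binding protein of low affinity, read 11.88, 11.77 and 11.63 in mutant skin, against 11.12, 11.30 and 11.25 in wild type skin. It rose by 0.53 (SE 0.09, limma adjusted p = 0.0293). Igfals, which encodes the acid labile subunit that holds IGFs in circulating complexes, read 6.37, 6.54 and 6.44 in mutant skin, against 6.83, 7.02 and 7.17 in wild type skin. It fell by 0.56 (SE 0.10, adjusted p = 0.0393). In both genes the groups did not overlap, where all mutant arrays lay above in 12.5% of all probe sets and below in 7.82%. Igfbp7 was called in 1 of the fits that left out an array, that without mutant replicate 3, with differences of 0.48 to 0.60 over the 6 fits. Igfals was called in 2, those without wild type replicate 1 or mutant replicate 3 (-0.65 to -0.48).

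In the EGF family, 1 of 15 measured genes rose and 1 fell, with a list median of 0.109. An unadjusted p under 0.05 was found for 3. Without mutant replicate 3 limma called 2 higher and 2 lower, or 26.7%, against 14.2% of all probe sets. Lrig1, an inhibitor that lowers EGF receptor levels and marks stem cells of the upper follicle, read 10.28, 10.14 and 10.10 in mutant skin, against 9.75, 9.72 and 9.75 in wild type skin. It rose by 0.43 (SE 0.08, limma adjusted p = 0.0342). Nrg2, a neuregulin ligand of ERBB receptors, read 4.93, 5.14 and 5.57 in mutant skin, against 6.07, 5.97 and 6.04 in wild type skin. It fell by 0.81 (SE 0.15, adjusted p = 0.0435), and mutant replicate 3 was the closest to wild type. On mutant replicates 1 and 2 Nrg2 read below the lower quartile of the arrays (5.49), so it is not shown to be above background there. Both genes were called in 1 of the 6 fits that left out an array, that without mutant replicate 3, with differences of 0.38 to 0.47 for Lrig1 and -0.99 to -0.67 for Nrg2.

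In the PI3 kinase and mTOR cascade, 1 of 14 measured genes fell and the list median was 0.0463. An unadjusted p under 0.05 was found for 3. Without mutant replicate 3 limma also called 1, or 7.14%, against 14.2% of all probe sets. Foxo3, a transcription factor that AKT keeps out of the nucleus, read 5.98, 5.65 and 5.89 in mutant skin, against 6.75, 6.43 and 7.00 in wild type skin. It fell by 0.89 (SE 0.15, limma adjusted p = 0.0330), and was called in 2 of the fits that left out an array, those without wild type replicate 2 or mutant replicate 3 (-1.04 to -0.75).

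The remaining 5 lists had no call by limma with all arrays. Of 17 other FGF ligands 0 were called and 1 had an unadjusted p under 0.05, with a median of 0.0677. That was Fgf22, an epithelial ligand of FGFR2b, which read 8.20, 8.19 and 8.92 in mutant skin, against 9.12, 8.88 and 8.93 in wild type skin (difference -0.54, SE 0.19, adjusted p = 0.257). Of 10 co-receptors, binding proteins and adaptors 0 were called and 1 had an unadjusted p under 0.05, Flrt3, which encodes a membrane protein that binds FGF receptors (0.34, SE 0.07, adjusted p = 0.0764). Without mutant replicate 3, Fgf22 was at -0.78 (adjusted p = 0.00154) and Flrt3 at 0.31 (adjusted p = 0.0328). In that fit 1 of the 17 ligands and 2 of the 10 co-receptors and adaptors were called, against 14.2% of all probe sets.

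Of 16 feedback and target genes, which these receptors induce, 0 were called and 2 had an unadjusted p under 0.05, with a median of -0.0157. In the fit without mutant replicate 3, limma called 2 of the 16, or 12.5%, against 14.2% of all probe sets. These were lower, Dusp5 (-0.82, adjusted p = 0.00165) and Myc (-0.44, adjusted p = 0.0138), and are named after their values were seen. With all arrays the smallest p was that of the early response gene Egr1, which read 12.11, 12.03 and 12.02 in mutant skin, against 11.38, 11.54 and 11.86 in wild type skin (difference 0.46, SE 0.12, adjusted p = 0.134). Fos of the same list, named after its values were seen, went the other way (-0.999, SE 0.49, limma adjusted p = 0.404). Its groups overlapped, and among the fits that left out an array it was called only without wild type replicate 2 (-1.63). Of 13 genes of the Ras and MAP kinase cascade 0 were called and 1 had an unadjusted p under 0.05, Rasa1, a brake on Ras (0.19, SE 0.07, adjusted p = 0.278). The list median was 0.0243, and 0 of the 13 were called without mutant replicate 3.

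Heparan sulfate chains help FGFs bind their receptors. Of 18 proteoglycans and chain-modifying enzymes 0 were called and 4 had an unadjusted p under 0.05, with a median of 0.104. Leaving out mutant replicate 3 gave a median of 0.18, and 4 of 18, or 22.2%, were called by limma (3 higher and 1 lower), against 14.2% of all probe sets. With all arrays the smallest p was that of Sdc4, which encodes syndecan-4 (0.28, SE 0.08, adjusted p = 0.142). Unadjusted p-values under 0.05 were found for 14.4% of all probe sets, and for 19.2% of the 120 pathway genes.

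**Figure D4:**
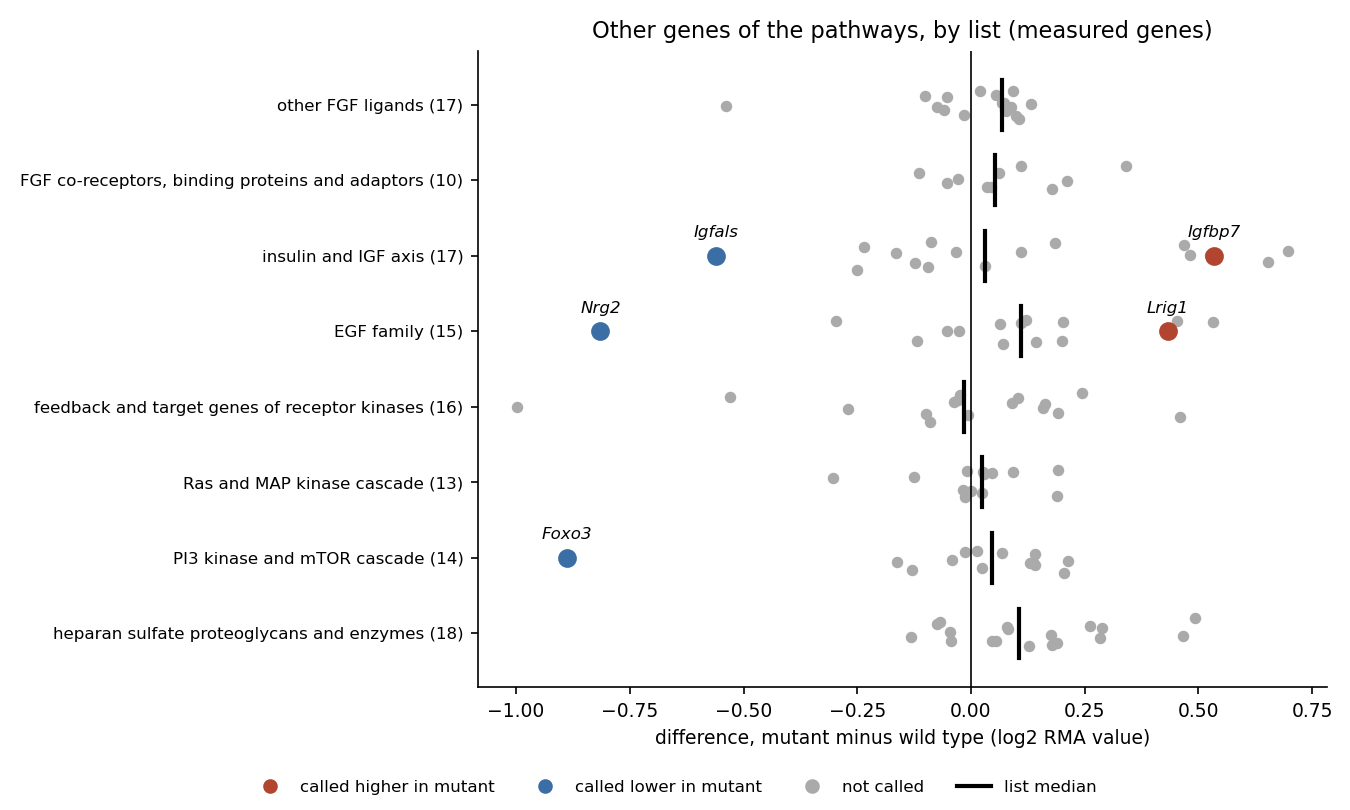
The difference between mutant and wild type skin (log2 RMA value, horizontal axis) is plotted for each measured gene of the 8 pathway lists, with called genes coloured and named, the others grey, and a black bar at each list median. Igfbp7 and Lrig1 were called higher and Igfals, Nrg2 and Foxo3 lower, and all list medians lie between -0.0157 and 0.109.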

How the data were processed

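Skin of 3 mutant and 3 wild type mice was profiled on Affymetrix arrays. The values are on a log2 scale as the authors deposited them, made with RMA per the submitters' processing notes. The RMA version, the chip definition and the genome build are not given in the sources used here. Per the labels' protocols, RNA was amplified from the poly(A) end. RMA quantile normalises the arrays, which hides any change in total RNA. RMA values also shrink differences of dim probe sets. Precision is limited by having 3 arrays a group, and p-values reflect the spread among these 6 samples.

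Of 16395 probe sets 64 controls were left out. GEO's platform annotation gave 1 symbol for 15644 of the 16331 others, several for 0 and none for 687, and genes without a named probe set were not analysed here. Groups were compared, mutant minus wild type, in R 4.3.3 by a linear model with a moderated variance (lmFit and eBayes of limma 3.58.1, two-sided, no filter, no covariate) and Benjamini-Hochberg adjustment over all 16331 probe sets at 0.05. "Called" means past that threshold. The fit was tested on simulated data with equal spread in both groups and no outlying array. An array like mutant replicate 3 was not simulated. Promoter windows came from RefSeq, GRCm38.p6. Figures were drawn with matplotlib 3.10.9 in Python 3.11.15.

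The members, the lists and the naming rule were chosen with earlier results of these data known. All members were named. From each pathway list up to 4 called genes were named, or the gene with the smallest p where none was called, and for the highest and the lowest member difference the 3 nearest genes. A marker was named only where it was called. Same-numbered mutant and wild type arrays did not deviate together (correlations of 0.0360, -0.119 and -0.0873 over probe sets for replicates 1, 2 and 3), so replicate numbers were not taken as pairs. Alternatives were a filter on low mean levels, quantile normalisation again, median centring, a robust prior with an intensity trend, estimated array weights, a replicate block and leaving out each array.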

Additional observations from a re-analysis of the deposited data

How the results depend on the processing

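Fgfr1, Igf1r and Fgfr2 stayed between 0.37 and 0.58 in every alternative tried, but not always past the threshold, and the other 7 members were called in none. Over 119 alternatives none moved a member's difference by more than 1 residual SD, which was large beside the smaller differences: leaving out an array gave 0.0270 to 0.23 for Egfr, -0.34 to -0.12 for Fgf5, -0.23 to 0.17 for Igf1, -0.21 to 0.0280 for Fgf7 and -0.16 to 0.0262 for Fgf18. The sign changed in 6, all of ligands and 0 of receptors: besides the fits already given, Igf1 was at 0.12 with array weights. Fgf10 had no value under the filter on low mean levels. The filter, repeated quantile normalisation, median centring and the intensity trend left 339, 342, 339 and 337 probe sets called and kept the same 3 receptors and a count of 5 pathway genes. Array weights gave 1880 probe sets and 19 pathway genes, against 339 and 5. With the replicate block, 197 probe sets and 1 pathway gene were called and none of the 10 members. Leaving out each array in turn gave 151 to 2316 probe sets and 0 to 20 pathway genes, the highest without mutant replicate 3, and the cause was not tested. The other 5 such fits have fewer arrays and keep that array, and gave 151 to 176 probe sets. For the 5 called pathway genes, 27 of 60 alternatives lost the call and 0 changed the sign. Without detection calls, levels near or below the lower quartile (Fgf10, Fgf18 and, in mutant skin, Nrg2) limit what the differences of these genes show.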

Other observations

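Without mutant replicate 3, limma called 20 of the 120 pathway genes, 11 higher and 9 lower, or 16.7% against 14.2% of all probe sets. That fit rests on 2 mutant arrays, and the genes named here were picked after their values were seen. In the insulin and IGF axis 6 of 17 genes were called. Pappa, which encodes a protease that frees IGFs from binding proteins, read 8.05, 7.62 and 7.31 in mutant skin, against 6.95, 6.92 and 7.03 in wild type skin. Its difference was 0.70 (adjusted p = 0.107) with all arrays and 0.87 (adjusted p = 0.00411) without mutant replicate 3. The related Pappa2 read 8.99, 8.83 and 8.42 in mutant skin, against 8.22, 8.40 and 8.21 in wild type skin (0.47, adjusted p = 0.195, and 0.63, adjusted p = 0.00419, without that array). Irs2, an adaptor of the insulin and IGF1 receptors, read 7.93, 7.47 and 7.83 in mutant skin, against 7.23, 7.22 and 7.20 in wild type skin (0.53, adjusted p = 0.0899, and 0.48, adjusted p = 0.0426). In these 3 genes all mutant arrays lay above all wild type arrays, as in 12.5% of all probe sets, and none was called with all arrays.

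Other genes differed between mutant replicate 3 and the remaining mutant arrays by more than they differed between the groups. Hs6st2, a heparan sulfate 6-O-sulfotransferase, read 7.46, 7.35 and 6.20 in mutant skin, against 6.45, 6.62 and 6.53 in wild type skin. Sdc1, the proteoglycan syndecan-1 of keratinocytes, read 10.36, 10.43 and 11.36 in mutant skin, against 10.75, 10.88 and 10.73 in wild type skin. Dusp5, a phosphatase of the MAP kinase ERK, read 8.22, 8.45 and 9.20 in mutant skin, against 9.21, 9.05 and 9.18 in wild type skin. None of these 3 was called with all arrays (adjusted p = 0.527, 0.935 and 0.348 by limma), and all 3 were without mutant replicate 3 (adjusted p = 0.000612, 0.0159 and 0.00165).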
